A study of Mus musculus with 209 samples.

Results

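These data are the single-cell RNA libraries of mouse metaphase II (MII) oocytes that hold ERCC spike-in reads, 7 from the Nlrp14 maternal knockout (KO) and 10 from wild type (WT). ERCC spike-ins are synthetic RNAs added to a sample as an external reference. The libraries were chosen by a measured value: one was taken when ERCC rows held at least 0.01% of all its counts, which kept 17 of the 33 oocyte RNA libraries in the table, out of 209 samples in the whole series. The lowest share kept was 0.0285% and the highest share left out was 0.00326%. An MII oocyte is a mature egg arrested in the second meiotic division. Per the labels, both groups are oocytes collected 14 to 15 h after an injection of hCG, the hormone that triggers ovulation, into superovulated females, for which the protocol names C57BL/6, and polyadenylated RNA was sequenced. The WT group carries no stated allele and the KO group is labelled only as the maternal knockout, so the part of the gene removed and the strain of the knockout line are not given in the sources used here. Each library is 1 oocyte and no animal is named, so the oocytes of a genotype may share a female. Each genotype was therefore treated as 1 sample, and no p-value was computed. Levels are counts per 1000000 gene counts (CPM), pooled over the libraries of a genotype, and differences are log2 ratios of KO over WT with 95% intervals that cover counting error only.

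NLRP14 is a member of the NLR protein family that is made in germ cells, and mouse embryos from eggs without it stop early in cleavage. A fully grown oocyte is transcriptionally silent: it carries a store of maternal mRNA whose polyadenylation, translation and decay are timed through maturation and the first cleavages. A level measured in an MII oocyte after selection of polyadenylated RNA therefore depends both on how much of an mRNA is present and on whether it holds a poly(A) tail.

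Gene counts ran from 3933604 to 8966801 in WT libraries and from 4682617 to 10439374 in KO libraries. After thinning each library to 3933604 counts, 11245 to 12025 genes were detected in WT and 11678 to 12328 in KO libraries. The ribosomal transcript Rn45s took 1.20 to 3.55% of gene counts in WT and 1.25 to 1.54% in KO libraries. There were 1706 to 2615 gene counts for each ERCC count in WT (median 2189) and 2571 to 3512 in KO libraries (median 2902), so the ranges meet only at their ends. Of 10 oocyte markers, 9 reached 10 CPM in a pool and the exception was Mos, at 1.69 CPM in WT and 4.90 in KO. The markers summed to 6378 to 9640 CPM in WT and 8510 to 14547 in KO libraries. Of 24 cumulus and granulosa cell markers, 17 were under 1 CPM in both pools and 2 had no count, with sums of 66.8 to 108 CPM in WT and 61.6 to 126 in KO libraries. Of 18 blood and connective tissue markers, 11 had no count and 16 were under 1 CPM. Their sum was 14.0 to 36.2 CPM in WT and 44.1 to 87.9 in KO libraries. Pecam1, an adhesion molecule of endothelium, gave most of it, at 9.91 to 32.7 CPM in WT and 42.3 to 85.7 in KO libraries. In the oocytes with low Rn45s, described below, Pecam1 held 227 CPM in WT and 272 in KO, above all libraries here. Whether the oocyte itself holds this transcript was not tested. The part of these differences in the results below was not tested.

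Nlrp14, the targeted gene, was lower in every KO oocyte. The WT libraries held 225 to 600 CPM with a median of 383, and the KO libraries held 29.5 to 63.6 CPM with a median of 46.3. The groups did not overlap, and the log2 ratio was -3.07 (interval -3.13 to -3.01). Reads on the gene remained in all 7 KO libraries. With the libraries scaled to the ERCC counts instead of to gene counts, the ratio was -2.58. Whether every oocyte received the same amount of ERCC is not given in the sources used here. Values with ERCC scaling, here and below, hold only if it did.

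Of the 6375 genes whose pooled level reached 10 CPM in KO or WT, 600 were at least 2-fold higher in KO oocytes (9.41%) and 235 at least 2-fold lower (3.69%). Every KO library lay above every WT library for 451 genes (7.07%) and below for 185 (2.90%). Both conditions together held for 279 higher genes (4.38%) and 62 lower genes (0.973%). The median log2 ratio was 0.07, with quartiles of -0.3 and 0.51, and 62 genes were past 4-fold higher against 17 past 4-fold lower. Since a gene needed 10 CPM in only 1 pool, some were tested because 1 genotype was high: 263 of the higher genes reached 10 CPM in the KO pool only and 111 of the lower genes in the WT pool only. Of the 5538 genes at 10 CPM in both pools, 337 were higher (6.09%) and 124 lower (2.24%), a filter added after seeing the data. Higher genes were more frequent at low levels. Between 10 and 30 CPM they made up 12.2% and lower genes 5.04%, and at 300 CPM or more the shares were 2.68% and 0.630%. The split depended on the scaling: higher genes made up 71.9% of the calls with gene counts as the total, 63.1% with TMM factors, 60.3% with DESeq2 size factors and 97.0% with ERCC scaling. ERCC scaling moved the median log2 ratio up by 0.52 and called 1706 genes higher and 53 lower, so each ratio given here is relative to the total of gene counts.

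**Figure D1:**
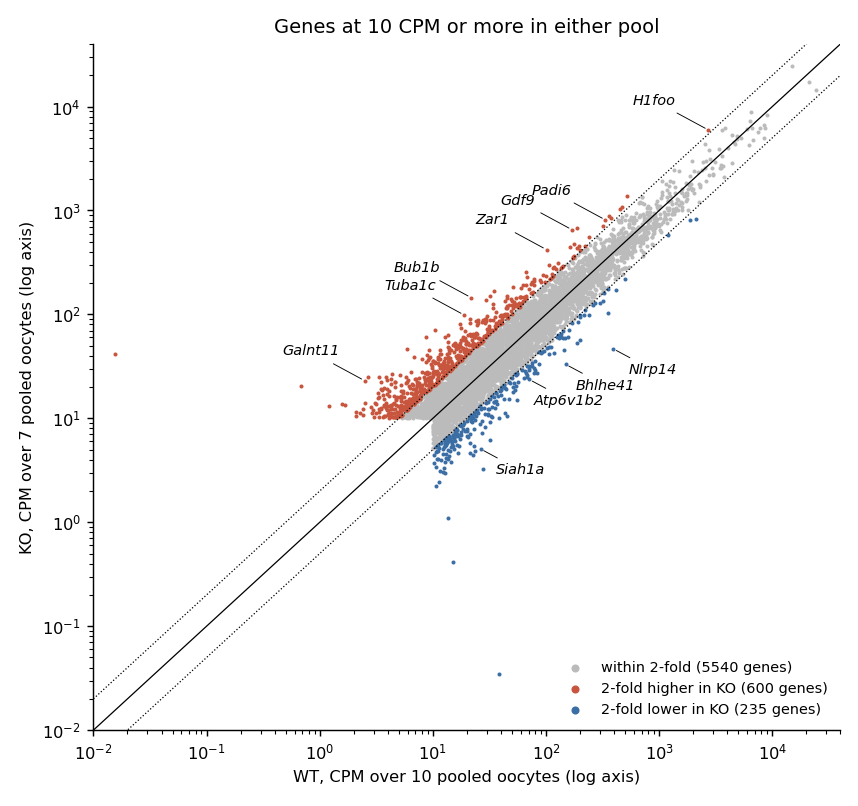
Pooled level of each of the 6375 tested genes in 10 WT oocytes (horizontal, CPM, log axis) and 7 KO oocytes (vertical, CPM, log axis). The solid line marks equal levels and the dotted lines 2-fold; 600 red points lie above and 235 blue points below, with Nlrp14 far below the line at 392 CPM in WT and 46.7 in KO.

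Among named genes at 20 CPM or more in the KO pool whose libraries did not overlap between genotypes, the 14 with the highest ratios had ratios from 3.20 down to 2.27. All but Tmem109, Tuba1c and Arcn1 were under 10 CPM in the WT pool, so they were tested only because their KO level was high. Since absence of overlap and ratio chose these genes, their values are a description. Galnt11, which starts O-linked glycans on proteins, held 0 to 6.42 CPM in WT libraries (median 1.91) and 10.4 to 40.8 in KO libraries (median 17.4), a log2 ratio of 3.20 (interval 2.97 to 3.45). Gcnt4, a transferase that branches O-glycans, held 2.15 to 7.90 CPM in WT (median 5.92) and 18.4 to 67.8 in KO libraries (median 44.8), a ratio of 2.97. For both genes the KO libraries were more spread out in CPM than the WT libraries. Grn encodes progranulin, a secreted protein that is also delivered to lysosomes. It held 1.03 to 5.78 CPM in WT (median 4.00) and 16.1 to 40.1 in KO libraries, a ratio of 2.92. Sumo2, the small modifier attached to proteins, held 1.73 to 16.7 CPM in WT (median 6.00) and 24.5 to 92.0 in KO libraries (median 57.2), a ratio of 2.79. Tmem109, a membrane protein, held 3.66 to 14.1 CPM in WT (median 10.7) and 46.1 to 98.4 in KO libraries (median 70.7), a ratio of 2.77. Furin cleaves proproteins in the secretory pathway. Its level was 1.84 to 5.70 CPM in WT (median 3.99) and 11.6 to 46.6 in KO libraries (median 21.6), a ratio of 2.68.

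Of the other 8, Marveld2, the tight junction protein tricellulin, stood at 2.64, Tmco6 at 2.58, Cmtm6 at 2.52 and Tmed9, a cargo receptor between endoplasmic reticulum and Golgi, at 2.51. Tuba1c, an alpha tubulin, stood at 2.39, Clptm1l at 2.33, Fbxo21, a substrate receptor of a ubiquitin ligase, at 2.28, and Arcn1, the delta subunit of the COPI coat, at 2.27. Arcn1 ran from 13.7 to 64.6 CPM in WT (median 34.2) and from 71.2 to 246 in KO libraries (median 163), so its closest libraries were nearly level. Tuba1c is nearly identical to Tuba1a and Tuba1b in sequence, and Sumo2 has processed copies in the genome, so how the authors assigned shared reads can move these values.

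**Figure D2:**
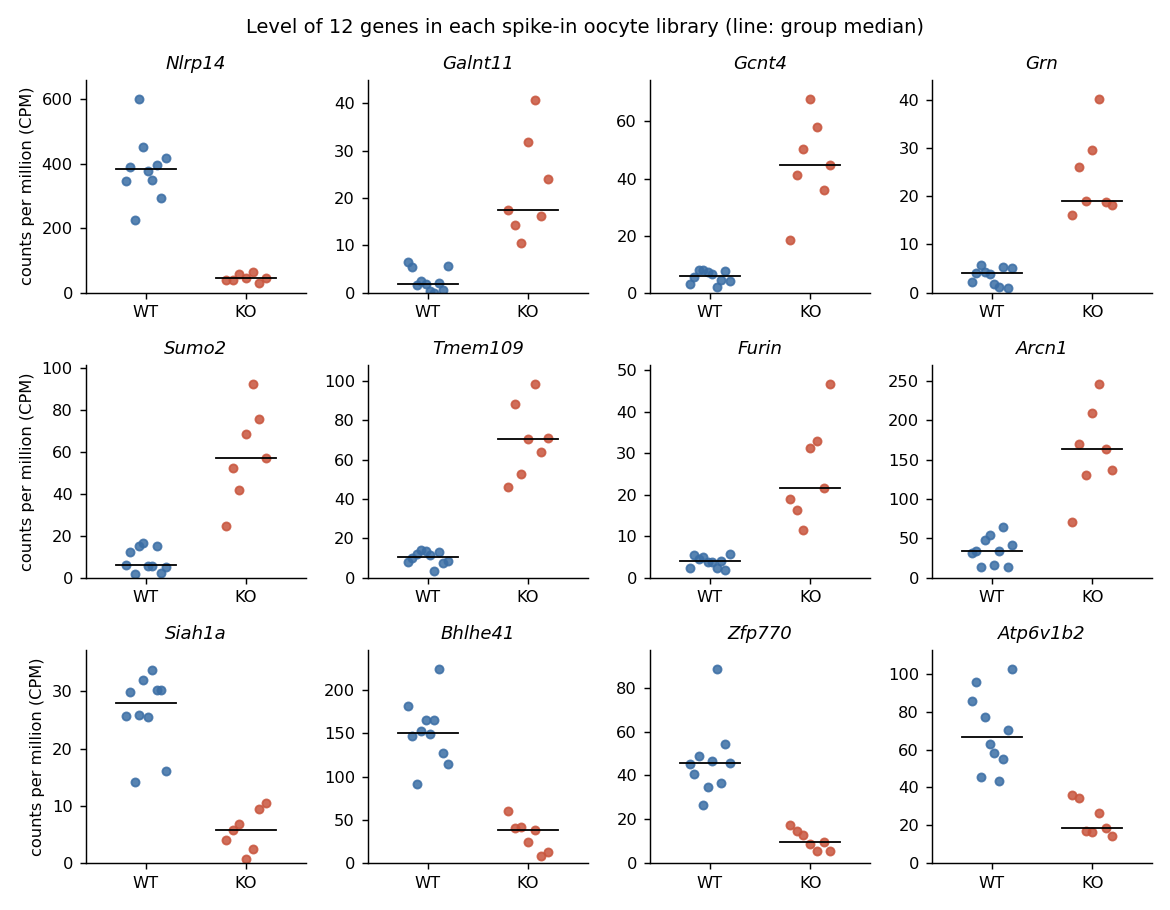
Level of 12 genes (CPM, linear axis from 0) in each of the 10 WT (blue) and 7 KO (red) oocyte libraries, with a line at each group's median. Nlrp14, Siah1a, Bhlhe41, Zfp770 and Atp6v1b2 are lower in every KO library and the other 7 genes are higher in every KO library.

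The same rule, with 20 CPM or more in the WT pool, named the lower genes, and it passes over predicted and numbered gene models. Among these genes the largest decrease without overlap after Nlrp14 was in Siah1a, a ubiquitin ligase. Siah1a held 14.1 to 33.8 CPM in WT libraries (median 27.9) and 0.671 to 10.5 in KO libraries (median 5.82), a ratio of -2.38 (interval -2.56 to -2.20). It reached 10 CPM in the WT pool only. Bhlhe41, a basic helix-loop-helix repressor of the circadian clock family, held 90.8 to 224 CPM in WT (median 151) and 8.02 to 59.7 in KO libraries (median 38.2), a ratio of -2.17. Zfp770, a zinc finger protein, held 26.6 to 88.6 CPM in WT (median 45.5) and 5.41 to 17.5 in KO libraries (median 9.61), a ratio of -2.11. All 3 had their highest KO oocyte below their lowest WT oocyte by a margin smaller than the WT spread. Atp6v1b2, a subunit of the proton pump that acidifies lysosomes, held 43.2 to 103 CPM in WT (median 66.8) and 14.3 to 36.2 in KO libraries (median 18.5), a ratio of -1.58. Fgf7, a growth factor, held 22.1 to 44.5 CPM in WT (median 32.7) and 6.57 to 18.6 in KO libraries (median 9.58), a ratio of -1.53. The other 9 lay between -1.48 and -1.32: Idh1, cytosolic isocitrate dehydrogenase, at -1.48, Gramd1c, a sterol transfer protein, at -1.46, Sptssa, a subunit of serine palmitoyltransferase, at -1.43, Stam, an endosomal sorting protein, at -1.41, and Nifk, a nucleolar protein, at -1.38. Sept11, a septin, Med6, a Mediator subunit, and Ube2a, a ubiquitin-conjugating enzyme, each stood at -1.35, and Rsl24d1, a ribosome assembly factor, stood at -1.32. With ERCC scaling these 9 fell short of 2-fold, with Idh1 at -0.99 and Rsl24d1 at -0.83.

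Past 16-fold in either direction lay 4 tested genes, singled out after their values were seen. Gm15446, a long noncoding RNA in RefSeq, held 25.1 to 46.8 CPM in WT libraries (median 40.5), while the KO libraries held 0 to 0.122 CPM with 2 counts in all. Its ratio of -10.11 (interval -13.16 to -8.26) was further from 0 than that of Nlrp14, and was -10.89 without KO replicate 13 and -10.84 without KO replicate 15. 2410141K09Rik, protein-coding in RefSeq, held 5.55 to 26.6 CPM in WT (median 13.9) and 0 to 0.958 in KO libraries (median 0.365), a ratio of -5.19 (interval -5.84 to -4.61) without overlap. Both genes also separated the WT oocyte sets of the table. In the 3 WT oocytes with low Rn45s, which are described below, Gm15446 had 1 count and 2410141K09Rik held 0.377 to 0.460 CPM, so these WT oocytes were at the level of KO oocytes. In 2-cell samples Gm15446 held 0 to 42.6 CPM in WT (median 25.2, with counts in 7 of 8 libraries) and 0 to 0.427 in KO, a ratio of -7.45, and 2410141K09Rik stood at -2.80. The cause of the difference between the WT sets was not tested.

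The other 2 genes past 16-fold rested on KO replicate 11. Spp1, the secreted protein osteopontin, held 287 CPM in this library and at most 0.126 in the other 6 KO libraries and 0.254 in WT, where its 1 count lay in WT replicate 11. Its ratio of 11.39 (interval 8.91 to 16.69) was 9.71 without WT replicate 11, and without KO replicate 11 both pools were at or under 3 counts. Tmsb4x, the actin-binding thymosin beta 4, held 131 CPM in KO replicate 11, at most 6.23 in the other KO libraries and 0 to 2.09 in WT, so its ratio of 4.92 became 1.43 without that library. KO replicate 11 held 7 genes at 10 CPM or more that were under 1 CPM in all other 16 libraries, among them Spp1, Lgals1 (26.8 CPM), Tceal9 (14.9 CPM), the iron exporter Slc40a1 (11.8 CPM) and Tuba1a (10.3 CPM). WT replicate 5 held 1 such gene, Fermt3, and the other 15 libraries held 0. Without KO replicate 11, 617 genes were 2-fold higher and 275 lower. The part of these transcripts in other results was not tested. Spp1 also reached 288 CPM in 1 KO oocyte with low Rn45s, against at most 3.01 in the other 9.

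The 250 bases before the start of 3 genes are shown because Bhlhe41 was lower in all 3 comparisons below and because Ctsd and Mcoln1 are 2 of the higher lysosomal genes. Their windows were chosen because they hold the letters CACGTG, as do those of 3 of the 6 higher lysosomal genes found in the table. They come from RefSeq on GRCm38.p6, while the count table's processing notes name mm9. Capitals mark CACGTG, the E-box form bound by basic helix-loop-helix proteins such as BHLHE41 and, within a longer element of lysosomal genes, TFE3. The letters read the same on both strands.
Bhlhe41: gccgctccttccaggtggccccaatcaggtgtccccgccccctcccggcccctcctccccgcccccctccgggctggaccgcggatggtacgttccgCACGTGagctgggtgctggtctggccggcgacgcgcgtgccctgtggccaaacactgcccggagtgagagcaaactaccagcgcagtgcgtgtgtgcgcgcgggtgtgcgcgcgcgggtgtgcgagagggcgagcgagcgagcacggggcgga
Ctsd: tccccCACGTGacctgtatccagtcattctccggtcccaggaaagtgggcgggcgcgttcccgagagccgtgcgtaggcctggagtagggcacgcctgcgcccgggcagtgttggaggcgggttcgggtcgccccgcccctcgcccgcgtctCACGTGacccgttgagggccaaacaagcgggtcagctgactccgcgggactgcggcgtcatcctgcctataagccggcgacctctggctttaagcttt
Mcoln1: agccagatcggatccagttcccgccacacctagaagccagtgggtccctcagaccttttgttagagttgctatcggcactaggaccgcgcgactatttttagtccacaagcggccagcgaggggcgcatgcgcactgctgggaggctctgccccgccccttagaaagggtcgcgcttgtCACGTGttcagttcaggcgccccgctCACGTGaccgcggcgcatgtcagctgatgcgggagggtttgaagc
The Bhlhe41 window is chr6:145865421-145865670 on the minus strand and holds 1 match, 153 bases before the start. The Ctsd window is chr7:142387828-142388077 on the minus strand with matches 245 and 98 bases before the start. The Mcoln1 window is chr8:3500269-3500518 on the plus strand with matches 71 and 45 bases before the start. The letters were present in 12.3% of the 506 higher genes with a promoter in the table, in 11.2% of 196 lower genes and in 10.3% of 5108 tested genes, against 6.86% of all 27025 promoters of the same length. The median GC content of the window was 59.6% for higher, 57.0% for lower and 59.6% for all tested genes. The median genomic span was 19.7 kb for higher genes, 26.5 kb for lower genes and 31.3 kb for all tested genes.

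The gene lists were chosen with earlier results of these data known, so their counts are descriptions, to be read against 9.41% higher and 3.69% lower among all tested genes. Of 41 lysosome and granulin genes in the table, 19 were tested and 8 were 2-fold higher (42.1%), while Atp6v1b2 was the 1 lower member, with a list median of 0.60 against 0.07 for all genes. Of the 8, 5 reached 10 CPM in the KO pool only, among them Grn and Ctsd, and were tested only because their KO level was high. Of the 13 members at 10 CPM in both pools, 3 were higher (23.1%, against 6.09%), with a median of 0.41. Without KO replicate 15, 8 were still higher, with a median of 0.55. Besides Grn, the protease gene Ctsd held 0.637 to 6.61 CPM in WT libraries (median 3.86) and 8.41 to 28.0 in KO libraries (median 21.2), a ratio of 2.41 without overlap. Atp6ap1, an accessory subunit of the proton pump, had a ratio of 2.25, with 1 or more KO libraries inside the WT range. Mcoln1, a cation channel of the lysosomal membrane, held 7.36 to 21.6 CPM in WT (median 15.3) and 34.1 to 69.4 in KO libraries (median 49.2), a ratio of 1.76. Of 16 tested genes of sterol synthesis and transport, 4 were higher (25.0%, 2 of them at 10 CPM in the KO pool only) and 1 lower, with a median of 0.58. Fdps, which makes farnesyl diphosphate, stood at 2.17, Sc5d, a late enzyme of cholesterol synthesis, at 1.51, and Npc1, which exports cholesterol from lysosomes and is on both lists, at 1.39. The lower member was Stard5, a sterol-binding protein, at -1.42 (-0.93 with ERCC scaling). Of 13 genes of glycolysis and pyruvate metabolism, 4 were higher (30.8%) and 0 lower, with a median of 0.60. All 13 reached 10 CPM in both pools. The higher genes were Aldoa at 1.60, Pkm at 1.37, the glucose transporter gene Slc2a1 at 1.29 and Gapdh at 1.09, and the libraries of Aldoa, Pkm and Gapdh did not overlap. In the oocytes with low Rn45s, described below, 0 genes of the lysosomal list and of these 2 metabolic lists were 2-fold higher, of 17, 12 and 11 measured, where 1.59% of all genes measured were, so lists of this size would be near 0 at that share.

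**Figure D3:**
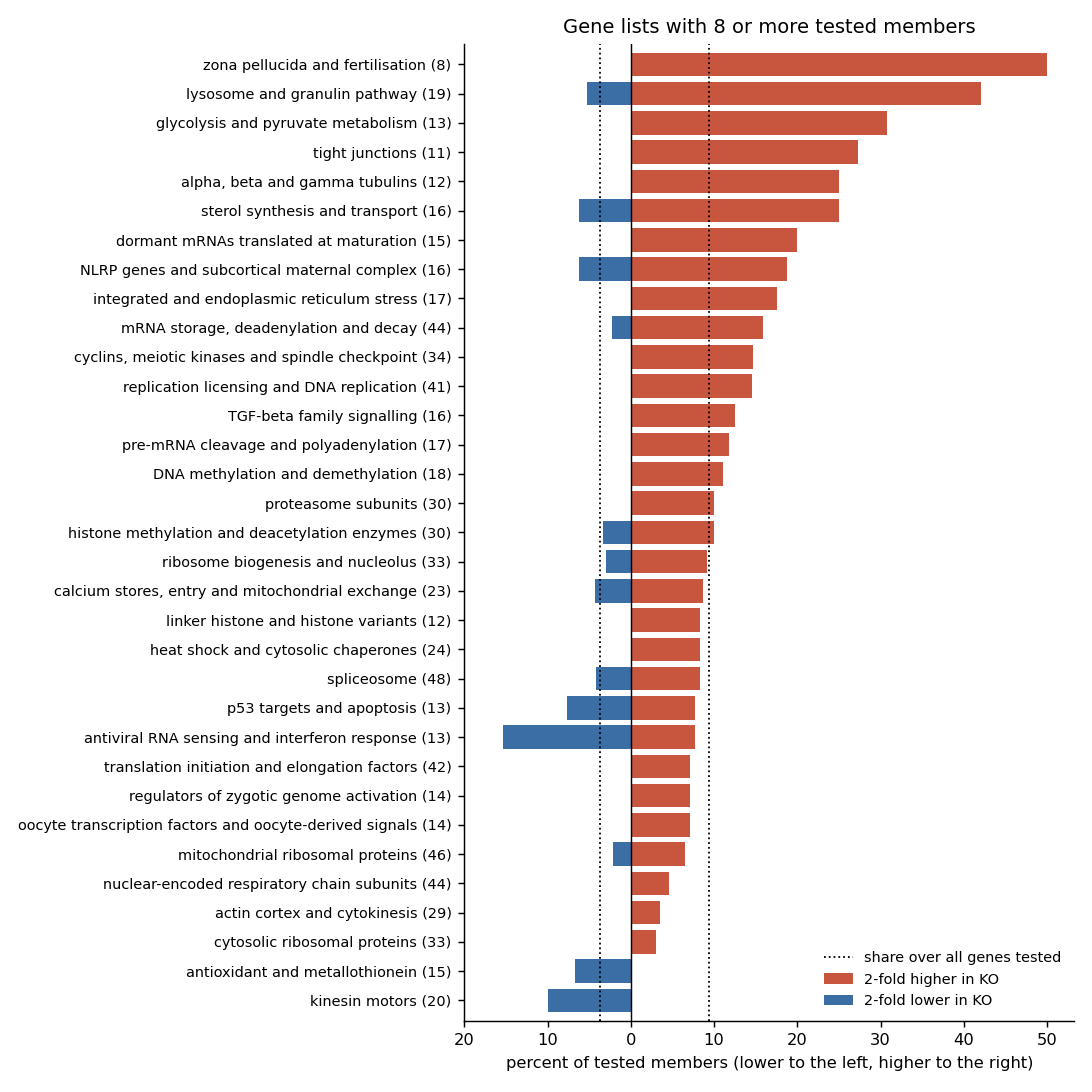
Percent of tested members of each gene list that were 2-fold higher (red, to the right) or lower (blue, to the left) in KO oocytes, for lists with 8 or more tested members (number in parentheses). Dotted lines mark the shares over all tested genes, 9.41% and 3.69%; the zona pellucida and lysosome lists lie farthest to the right, with members that reached 10 CPM in the KO pool only.

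Of 13 genes of the egg coat and of fertilisation in the table, 8 were tested, 4 were 2-fold higher (50.0%) and 0 lower, with a median of 0.67. Of the 4, 3 reached 10 CPM in the KO pool only, and of 5 members at 10 CPM in both pools 1 was higher, with a median of 0.28. Without KO replicate 15 the count of higher genes was 2 and the median 0.57. Astl, the egg protease ovastacin that hardens the coat after fertilisation, held 6.17 to 13.2 CPM in WT libraries (median 9.41) and 23.0 to 48.6 in KO libraries (median 36.2), a ratio of 1.84. Zp1, a coat protein, held 15.5 to 41.0 CPM in WT (median 28.1) and 55.9 to 128 in KO libraries (median 70.0), a ratio of 1.53. Zp3, another coat protein, stood at 1.07 and at 0.84 without KO replicate 15. Cd9, the egg tetraspanin needed for fusion, stood at 1.00, overlapped between genotypes, and lay between 0.80 and 1.00 without any 1 of 7 libraries. Every KO oocyte was above every WT oocyte for Astl and Zp1.

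Of 16 genes of the NLRP family and the subcortical maternal complex, a protein assembly under the egg membrane, 3 were higher (18.8%, against 9.41% of all genes) and Nlrp14 was the 1 lower gene (6.25%, against 3.69%), with a median of 0.30. Padi6, a member of the complex, held 172 to 526 CPM in WT libraries (median 300) and 576 to 1175 in KO libraries (median 671), a ratio of 1.27 without overlap. Tle6, another member, stood at 1.58 and Nlrp2 at 1.03, both with overlap, and Nlrp2 was at 0.94 to 0.99 without any 1 of WT replicates 4, 6 and 12 and KO replicate 15. Nlrp5, the gene of MATER, stood at 0.94 (1.12 without WT replicate 7 and 1.00 without KO replicate 16), and Zbed3 at 0.74, for which the WT libraries held 11014 to 18315 CPM and the KO libraries 20646 to 28371. Khdc3 stood at 0.80 and Ooep at -0.09. The other NLRP genes, Nlrp4a, Nlrp4b, Nlrp4c, Nlrp4e, Nlrp4f, Nlrp9a, Nlrp9b and Nlrp9c, lay between -0.40 (Nlrp9c) and 0.39 (Nlrp4c and Nlrp9a), and no other NLRP gene tested was 2-fold lower with Nlrp14.

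Of 14 oocyte transcription factors and oocyte-derived signals, 1 was higher (7.14%, near the 9.41% of all genes) and 0 lower, with a median of 0.22. This was Gdf9, the growth factor that oocytes send to cumulus cells, which held 114 to 208 CPM in WT libraries (median 164) and 300 to 1380 in KO libraries (median 487), a ratio of 1.94. The highest value, 1380, was KO replicate 15. Of 16 TGF-beta family signalling genes, 2 were higher, Gdf9 and Smad5 at 1.20, with a median of 0.36. H1foo, the oocyte linker histone and the 1 higher gene of 12 linker histones and histone variants, held 1881 to 3445 CPM in WT (median 2716) and 3971 to 7101 in KO libraries (median 6530), a ratio of 1.13 without overlap.

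Messages that are stored without translation and used at maturation, and the proteins that store them, gave mixed results. Of 44 genes of mRNA storage, deadenylation and decay, 7 were higher (15.9%, against 9.41% of all genes) and 1 lower (2.27%, against 3.69%), with a median of 0.04. Of the 7, 2 reached 10 CPM in the KO pool only, and the lower gene reached it in the WT pool only. Of the 40 members at 10 CPM in both pools, 5 were higher and 0 lower, with a median of 0.01. Among all genes at 10 CPM in both pools, 6.09% were higher and 2.24% lower. Zar1, which binds and stores maternal mRNA, held 44.5 to 161 CPM in WT libraries (median 110) and 282 to 755 in KO libraries (median 339), a ratio of 2.05 without overlap. Patl2, a translational repressor of oocytes, stood at 2.00 and Igf2bp2, an mRNA-binding protein, at 1.42. Msi2, an RNA-binding regulator of translation, was the lower gene at -1.89. Of 15 dormant mRNAs, 3 were higher (20.0%) and 0 lower, with a median of -0.03. Bub1b, a spindle checkpoint gene, held 6.78 to 42.7 CPM in WT (median 22.5) and 41.8 to 214 in KO libraries (median 162), a ratio of 2.73 in which the lowest KO library fell inside the WT range. Plat, the protease tPA, stood at 1.63 and Tex19.1 at 1.26. In oocytes with low Rn45s, Bub1b held 1171 CPM in WT and 1126 in KO, Gdf9 5066 and 5210, and Plat 2704 and 3590, all far above both genotypes here. Of 17 genes of cleavage and polyadenylation, 2 were higher (11.8%, near the share of all genes) and 0 lower, with a median of 0.26. These were Papola, the canonical poly(A) polymerase, at 1.46 without overlap (21.5 to 41.1 CPM in WT and 52.4 to 102 in KO libraries), and Cpsf3, the endonuclease subunit, at 1.84 with overlap. Cpsf3 reached 10 CPM in the KO pool only. Sympk, the scaffold symplekin, stood at -0.97, and passed 2-fold, reaching -1.04, without any 1 of WT replicates 10, 11 and 13 and KO replicates 13 and 15.

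Of 41 genes of replication licensing and DNA replication, 6 were higher (14.6%, against 9.41% of all genes) and 0 lower, with a median of 0.28. Of the 6, 2 reached 10 CPM in the KO pool only, Mcm5 and Mcm3. Of the 38 members at 10 CPM in both pools, 4 were higher (10.5%, against 6.09%), with a median of 0.22. Without KO replicate 15, 5 were higher. Mcm5, a subunit of the replicative helicase, held 2.51 to 14.0 CPM in WT libraries (median 6.57) and 14.4 to 34.4 in KO libraries (median 23.1), a ratio of 1.76. Prim2, the large primase subunit, held 10.0 to 48.9 CPM in WT (median 26.8) and 58.5 to 106 in KO libraries (median 81.2), a ratio of 1.65. Mcm3 and Pola2, a subunit of DNA polymerase alpha, both stood at 1.39 with overlap. Of 34 cyclins, meiotic kinases and checkpoint genes, 5 were higher (14.7%, 3 of them at 10 CPM in the KO pool only) and 0 lower, with a median of 0.20, led after Bub1b by Ccne1, cyclin E1, at 1.67, Anapc2, a subunit of the anaphase-promoting complex, at 1.41 and Ccnd3, cyclin D3, at 1.40. Of 12 tubulins, 3 were higher (25.0%) and 0 lower, with a median of 0.72. Tuba1c held 4.69 to 33.9 CPM in WT (median 19.3) and 80.7 to 127 in KO libraries (median 97.0), and Tuba3a, which is nearly identical to Tuba3b, stood at 1.52 and Tubb6 at 1.35. Of 20 kinesins, 0 were higher and 2 lower (10.0%, against 3.69% of all genes), with a median of -0.04. The lower genes were Kif21a at -1.73, at 10 CPM in the WT pool only, and Kif2a, which shortens microtubules, at -1.19 (-0.70 with ERCC scaling). Of 29 genes of the actin cortex and cytokinesis, 1 was higher (3.45%, against 9.41% of all genes). This was Pfn1, profilin, which held 5.97 to 48.7 CPM in WT (median 33.1) and 94.9 to 211 in KO libraries (median 139), a ratio of 2.21. Of 11 tight junction genes, 3 were higher (27.3%), all 3 at 10 CPM in the KO pool only. Among them Cldn15, a claudin, stood at 2.44 with overlap.

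Of 18 genes of DNA methylation and demethylation, 2 were higher (11.1%, near the 9.41% of all genes) and 0 lower, with a median of 0.28. Every KO library lay above every WT library for 3 of the 18, where 7.07% of all genes did so. Kdm1b, the histone demethylase required for oocyte methylation imprints, held 88.5 to 300 CPM in WT libraries (median 191) and 319 to 825 in KO libraries (median 420), a ratio of 1.23 without overlap. Trim28, a corepressor that protects imprints, stood at 1.08, and at 0.96 without KO replicate 17. Uhrf1, which brings DNMT1 to replicating DNA, held 91.7 to 166 CPM in WT and 185 to 438 in KO libraries, a ratio of 0.95, at the edge of 2-fold: it was 1.00 or 1.01 without any 1 of WT replicates 7 and 13 and KO replicate 11. Tet3, the oocyte dioxygenase of 5-methylcytosine, held 239 to 383 CPM in WT and 388 to 1030 in KO libraries, a ratio of 0.62. For Kdm1b, Uhrf1 and Tet3 every KO oocyte was above every WT oocyte, and KO replicate 17 was the highest. Of the methyltransferases, Dnmt1 stood at 0.30, Dnmt3a at 0.50, Dnmt3b at 0.75 and the cofactor Dnmt3l at 0.19, all with overlap. Dppa3, the protein that shields maternal methylation, stood at -0.32. The other 9 members lay between -0.47 (Mbd2) and 0.57 (Mbd4). Of 30 histone methylation and deacetylation enzymes, 3 were higher (10.0%) and 1 lower (3.33%), near the shares of all genes. Among them were Hdac6 at 1.63, Setd1a at 1.00 (0.94 to 0.99 without any 1 of 7 libraries) and Kdm5c at -1.07 (-0.98 without KO replicate 17 and -0.58 with ERCC scaling).

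Lists of the basic machinery of protein synthesis and energy held shares of higher genes near or below the 9.41% of all genes. Of 33 cytosolic ribosomal proteins 1 was higher, Rpl13 at 1.82, and 0 lower, with a median of 0.18. Of 46 mitochondrial ribosomal proteins 3 were higher, Mrps36 (1.36), Mrpl9 and Mrpl37, and 1 lower, Mrpl35 at -1.19 (-0.70 with ERCC scaling). Of 44 respiratory chain subunits 2 were higher, Atp5g3 at 1.43 and Atp5e at 1.04 (0.97 without WT replicate 12 and 0.91 without KO replicate 14). Of 42 translation factors 3 were higher, Eif3c at 1.48, Eif3m at 1.22 and Eif4a3 at 1.01 (0.91 to 1.00 without any 1 of 6 libraries), and of 33 ribosome biogenesis genes 3 were higher, led by Rrp36 at 1.97, and Nifk was lower. Of 30 proteasome subunits 3 were higher, the ATPases Psmc4 at 1.68 and Psmc3 at 1.64 and the lid subunit Psmd3 at 1.25, all without overlap. Of 48 spliceosome genes 4 were higher and 2 lower (0 lower without KO replicate 15), 3 of the 4 at 10 CPM in the KO pool only, with Sf3a2 at 2.15, Srsf6 at 1.73, Srsf7 at 1.32 and Srsf4 at 1.16. The lower genes, named after their values were seen, were Srsf1 at -1.09 (-0.98 without WT replicate 7, -0.88 without KO replicate 16 and -0.60 with ERCC scaling) and Hnrnpa3 at -1.02 (as far as -0.95, and short of 2-fold, without any 1 of 8 libraries, and -0.53 with ERCC scaling). The 2-cell samples gave 25 of 33 cytosolic ribosomal proteins and 19 of 32 ribosome biogenesis genes as 2-fold lower in KO, against 16.1% of all genes measured there, and 0 and 1 in the spike-in oocytes.

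Of 17 genes of the integrated and endoplasmic reticulum stress responses, 3 were higher (17.6%, 2 of them at 10 CPM in the KO pool only) and 0 lower, with a median of 0.55 (1 higher, median 0.47, without KO replicate 15): Pdia6 at 2.18, Hspa5, the chaperone BiP, at 1.12 and Pdia4 at 1.01, all with overlap. Without KO replicate 15, Hspa5 was at 0.95 and Pdia4 at 0.82, and Pdia4 also missed 2-fold without any 1 of 6 other libraries. Among all tested genes 9.41% were higher and 3.69% lower. Of 24 heat shock genes and chaperones 2 were higher (8.33%), Hspa8 at 1.35 and Hsf2 at 1.08 (0.98 without WT replicate 9). Of 13 p53 targets and apoptosis genes 1 was higher (7.69%), Aen at 1.38, and 1 lower (7.69%), Casp8 at -1.24 (-0.75 with ERCC scaling). Of 13 antiviral and interferon genes, 1 was higher (7.69%) and 2 lower (15.4%). Tlr8, an endosomal RNA sensor, held 0 to 19.1 CPM in WT libraries (median 1.49) and 9.39 to 43.1 in KO libraries (median 25.6), a ratio of 3.22 that became 3.94 without WT replicate 11. Tlr8 overlapped between genotypes and reached 10 CPM in the KO pool only. Of the 9 antiviral and interferon genes at 10 CPM in both pools, 0 were higher and 2 lower. Ddx58, the cytosolic RNA sensor RIG-I, held 20.2 to 76.6 CPM in WT (median 59.4) and 6.71 to 21.2 in KO libraries (median 15.8), a ratio of -1.88, and Ddx60, a related helicase, stood at -1.69. Of 23 calcium genes 2 were higher (8.70%), Stim2, a sensor of store filling, at 2.04 and Letm1, a mitochondrial inner membrane protein, at 1.42. Both reached 10 CPM in the KO pool only. Ryr2, a release channel, was the 1 lower gene (4.35%), at -1.24 (-0.75 with ERCC scaling and -0.89 against the 5 WT libraries with less Rn45s). It reached 10 CPM in the WT pool only. Of the 20 members at 10 CPM in both pools, 0 were higher and 0 lower. Of 15 antioxidant genes 1 was lower (6.67%), Gstm5 at -1.18 (-0.69 with ERCC scaling). Of 14 regulators of zygotic genome activation 1 was higher (7.14%), Smarca4, the BRG1 remodeller, at 1.44. The 2 zygotic activation transcripts and the 2 cumulus markers that were tested lay within 2-fold.

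KO replicate 15 gave the highest KO value for 271 of the 600 higher genes, against 26 to 100 for each of the other 6. Over these genes its median log2 level relative to the WT pool was 1.57, while the other KO libraries lay between 1.08 and 1.32 and the WT libraries between -0.46 and 0.23. Without it, 518 genes were 2-fold higher, of which 506 were among the 600. The lower genes were spread more evenly, with 15 to 56 of 235 having their lowest KO value in any 1 library. The 10 WT libraries differed in Rn45s. Against the 5 WT libraries with Rn45s under 2.5%, 764 genes were higher and 264 lower, and against the 5 with more, 509 were higher and 258 lower. Of the 600 higher genes, 571 and 472 were called in these 2 settings, which were chosen after seeing the data.

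Libraries with the same KO and WT labels could be compared elsewhere in the table. One set was oocytes with little ERCC and with Rn45s under 1% (10 KO and 3 WT, a set defined after the data were seen), and the other was the 2-cell samples (9 KO and 8 WT). Neither shares a library with the spike-in oocytes. Nlrp14 was lower without overlap in both, with ratios of -4.71 and -2.03. Of the 600 higher genes, 488 were measured at 10 CPM in the oocytes with low Rn45s, where their median ratio was 0.11 against -0.01 for all genes. There 32 were 2-fold higher (6.56%, against 1.59% of all 5463 genes measured) and 5 were lower. In the 2-cell samples their median was 0.43 against -0.07, and 119 of 539 were 2-fold higher (22.1%, against 7.73% of 6038) and 66 lower. Of the 235 lower genes, 17 of 159 were lower in oocytes with low Rn45s (10.7%, against 1.50%), with a median of -0.27. In the 2-cell samples 72 of 205 were lower (35.1%, against 16.1%), with a median of -0.67. Across the 5263 genes measured in all 3 sets, Pearson's r of the ratios was 0.25 between spike-in and low-Rn45s oocytes, 0.26 between spike-in oocytes and 2-cell samples, and 0.03 between low-Rn45s oocytes and 2-cell samples. Genes are not independent replicates, and these values are descriptions.

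**Figure D4:**
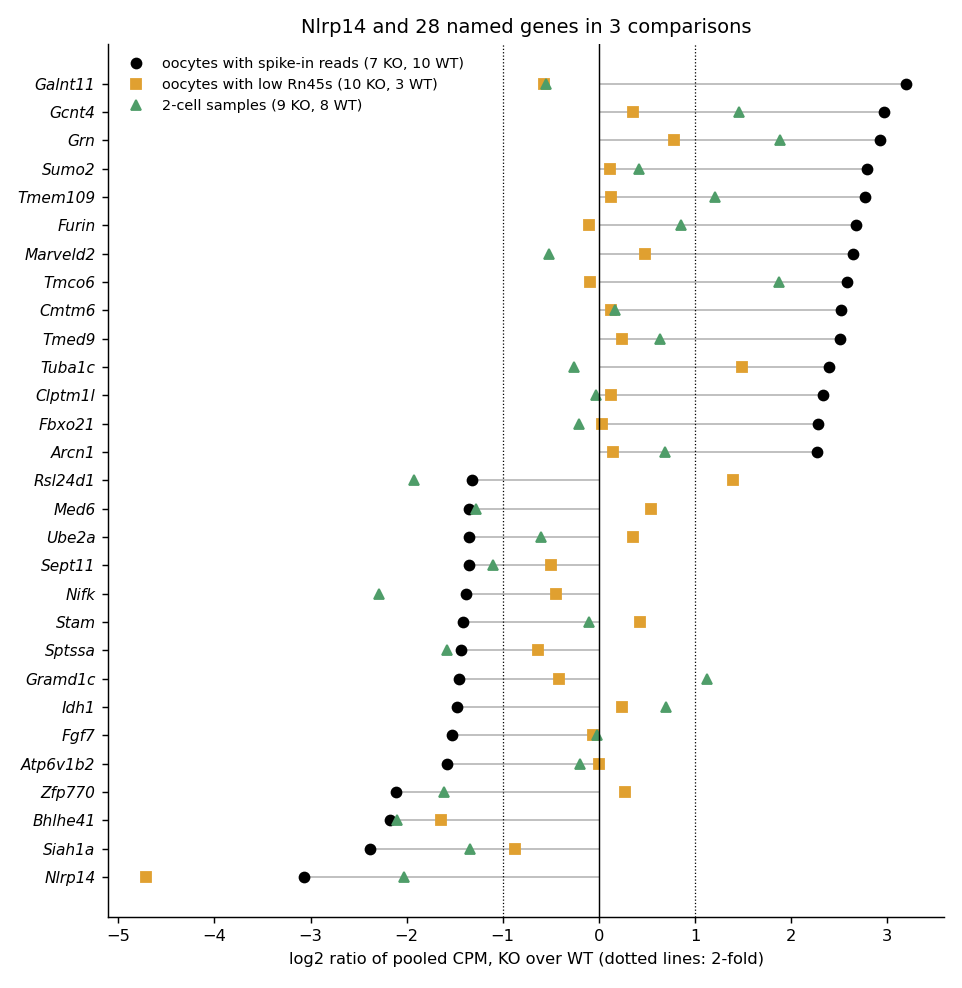
Log2 ratio of pooled CPM, KO over WT (horizontal), for Nlrp14 and the 28 named genes in spike-in oocytes (black circles), oocytes with low Rn45s (yellow squares) and 2-cell samples (green triangles), with dotted lines at 2-fold. The circles were used to choose the genes; Nlrp14 and Bhlhe41 are past 2-fold lower in all 3, and for 9 of the 14 higher genes the squares lie between -0.10 and 0.24.

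Of the 14 genes with the highest ratios, Tuba1c was the only 1 to be 2-fold higher in oocytes with low Rn45s as well, at 1.49. There Galnt11 was at -0.57, Furin at -0.10, Sumo2 at 0.12 and Grn at 0.78. In the 2-cell samples Grn stood at 1.88, Tmco6 at 1.87, Gcnt4 at 1.46 and Tmem109 at 1.21, while Galnt11 stood at -0.55 and Marveld2 at -0.52. Of the 14 lower genes, Bhlhe41 stood at -1.64 in oocytes with low Rn45s and at -2.10 in the 2-cell samples, and Siah1a at -0.87 and -1.34. Each of the 14 genes with the highest ratios and of the 14 lower genes, Bhlhe41 included, overlapped between genotypes in both sets. Nifk (-2.29), Rsl24d1 (-1.92), Zfp770 (-1.61), Sptssa (-1.58), Med6 (-1.28) and Sept11 (-1.10) were also past 2-fold lower in 2-cell samples, and Gramd1c was 2-fold higher there at 1.12. Rsl24d1 was 2-fold higher in oocytes with low Rn45s, at 1.40. Rsl24d1 and Tuba1c there, and Grn and Tmco6 in the 2-cell samples, reached 10 CPM in the KO pool only. Letm1 was higher in every KO oocyte of the spike-in libraries and lower in every KO 2-cell sample, at -1.89. The difference was not tested.

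In all 3 comparisons 6 genes were 2-fold higher and 6 were 2-fold lower. The higher genes were Leprot (1.85, 1.09 and 1.27 in spike-in oocytes, low-Rn45s oocytes and 2-cell samples), which acts in receptor trafficking, Prickle3 (1.81, 1.65 and 2.33), a planar cell polarity gene, and Far2 (1.77, 1.20 and 2.33), a fatty acyl reductase. Usp11, a deubiquitinase, stood at 1.57, 1.10 and 1.74, Fbxw5, a ubiquitin ligase subunit, at 1.42, 1.37 and 1.35, and Ppp5c, a protein phosphatase, at 1.30, 2.19 and 1.18. All 6 reached 10 CPM in the KO pool only, both in the spike-in oocytes and in the 2-cell samples. All but Leprot did so in the low-Rn45s oocytes too. There they were measured only because their KO level was high. The lower genes were Nlrp14, Bhlhe41, Ddx60 (-1.69, -2.79 and -2.80), Zfp397 (-1.48, -1.16 and -1.25), Zfp677 (-1.19, -1.11 and -2.36) and Got1, cytosolic aspartate aminotransferase (-1.12, -1.34 and -1.17). In the spike-in oocytes Zfp677 was at -0.84 without WT replicate 12 and Got1 at -0.97 without WT replicate 8. Set against the 5 WT libraries with more Rn45s, Ddx60 stood at -0.95 and Zfp677 at -0.56, and against the 5 with less Got1 stood at -0.73. With ERCC scaling Zfp397 (-0.99), Zfp677 (-0.69) and Got1 (-0.63) missed 2-fold, so 3 of the 6 lower genes, Nlrp14, Bhlhe41 and Ddx60, kept the call under that scaling. In the spike-in oocytes Zfp397 and Zfp677 reached 10 CPM in the WT pool only. Nlrp14 alone of the 12 was without overlap in all 3 sets. These genes were singled out after their values were seen.

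The ERCC species give the spread of a ratio for RNAs added from outside. Of 16 species with 200 or more counts over the 17 libraries, 0 were past 2-fold, with log2 ratios from -0.31 to 0.51 and a standard deviation of 0.22, each as a share of the ERCC counts. Of 9441 genes with as many counts, 15.5% were past 2-fold and the standard deviation was 0.76. Between 50 and 200 counts, 1 of 8 species was past 2-fold, and 38.7% of 2358 genes were. Few species reached the counts of most tested genes.

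**Figure D5:**
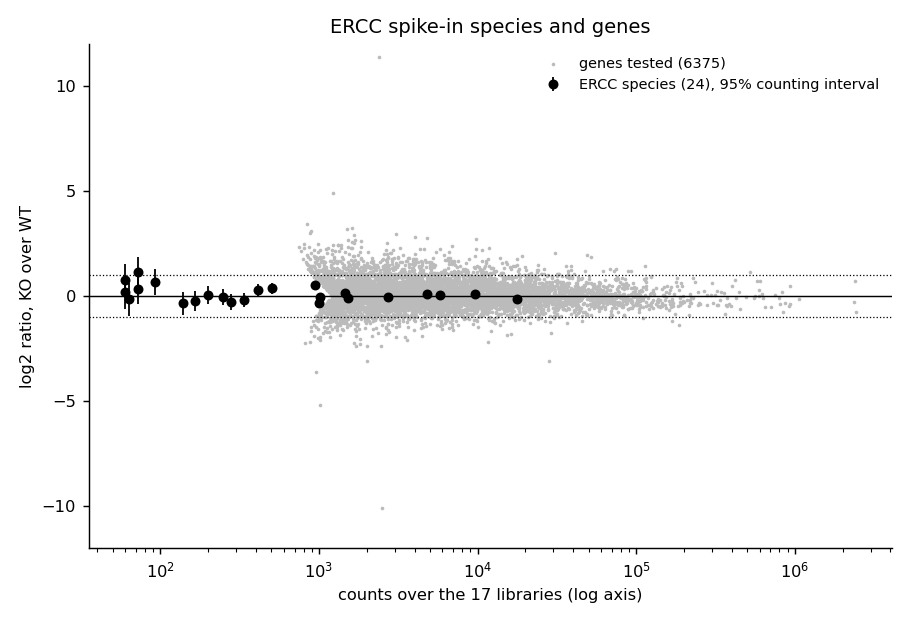
Log2 ratio of KO over WT (vertical) against counts summed over the 17 libraries (horizontal, log axis) for 6375 tested genes (grey) and 24 ERCC species with 50 or more counts (black, bars are 95% counting intervals, ratio taken within ERCC counts). Dotted lines mark 2-fold; 1 ERCC species lies past them.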

How the data were processed

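Gene counts per library were deposited by the authors as raw whole-number counts in 1 table of 24450 genes and 92 ERCC rows. The submitters' processing notes name STAR 2.6.0a, HTSeq 0.10.0, featureCounts 2.0.1, cutadapt 1.15, Trim Galore 0.6.6 and the mm9 build without saying which made the table. How reads shared by near-identical or overlapping genes were assigned is not given in the sources used here. CPM were computed over all gene rows without ERCC rows. Counts were summed over the oocytes of a genotype, and genes that reached 10 CPM in a pool were compared by log2 ratio with an exact conditional Poisson interval at 95%. A pool without counts was set to 3 counts. A gene was called at 2-fold, with no test, since each genotype counts as 1 sample. Named genes were Nlrp14, the 14 highest and 14 lowest ratios at 20 CPM in the higher of the pools without overlap, up to 4 genes of each of 36 lists, and all members of the NLRP, DNA methylation and polyadenylation lists, passing over predicted gene models. The members and lists were chosen with earlier results of these data known. No 2 libraries of a genotype agreed within sampling noise (lowest chi-square per gene 14.3). Alternatives were TMM factors from edgeR, DESeq2 size factors, ERCC scaling, other filters and summaries, and leaving out each library. The calling was also run on simulated counts with known changes, drawn independently for each library from WT levels. These hold no effect of a shared female or of library preparation, so they cannot show how often such effects give 2-fold calls.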

Additional observations from a re-analysis of the deposited data

Results flagged for a closer look

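In 26 of the 304 groups of values looked at, 1 library lay far from the rest of its genotype, measured as its gap to the nearest library over the whole range. Chance gives about 1 in 20 groups for independent, normally distributed values, which was not checked for these CPM. Spp1 and Tmsb4x were also looked at because of their extreme ratios. No conclusion is therefore drawn from the count. In KO libraries, replicate 15 was the highest for Gdf9 (1380 CPM), Nlrp5 (1849 CPM), Tubb6 (191 CPM), Tuba3a (126 CPM), Tmed9 (51.3 CPM) and Zp3 (27.8 CPM). KO replicate 17 was the highest for Tet3 (1030 CPM), Kdm1b (825 CPM), Uhrf1 (438 CPM), Kif2a (122 CPM), Trim28 (78.8 CPM), Hnrnpa3 (48.9 CPM) and Srsf1 (30.8 CPM) and the lowest for Nlrp9b (433 CPM), KO replicate 11 was the highest for Spp1 (287 CPM) and Tmsb4x (131 CPM), and KO replicate 14 had the lowest share of Rn45s, 1.25%. In WT libraries, replicate 6 was the lowest for Dppa3 (5827 CPM), Nlrp9c (750 CPM) and Mbd2 (5.20 CPM). WT replicate 12 was the lowest for Atp5e (16.2 CPM). The highest WT values were 88.6 CPM of Zfp770 in replicate 10, 38.9 CPM of Pola2 in replicate 13, 19.1 CPM of Tlr8 and 0.254 CPM of Spp1 in replicate 11 and 11 CPM of Sf3a2 in replicate 9.

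Letm1 was higher in every KO oocyte with spike-in reads, with a log2 ratio of 1.42, and lower in every KO 2-cell sample, with a ratio of -1.89. The difference between the stages was not tested.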

How the results depend on the processing

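Scaling to ERCC counts gave 1706 genes 2-fold higher and 53 lower, and a log2 ratio of -2.58 for Nlrp14. It assumes an equal amount of ERCC in every oocyte, which is not given in the sources used here. A minimum of 50 CPM left 207 higher and 74 lower of 3165 genes, and no minimum beyond 3 counts gave 2577 and 1974 of 15344. A minimum of 10 CPM in both pools, added after seeing the data, gave 337 and 124 of 5538. Leaving out 1 library at a time gave 518 to 659 higher genes, 219 to 275 lower genes and -3.18 to -2.96 for Nlrp14. Under the other settings the counts stayed within 1.5 times of the reported ones. Of the log2 ratios of the 148 genes named, 3615 of 3699 values under an alternative stayed within the standard deviation between libraries of a genotype. The other 84 moved further. Leaving out a single library can hardly move a pooled ratio by that much. Of the ratios at 2-fold or more, 0 changed sign, and sign changes of smaller ratios were not counted. Spp1 has no ratio without KO replicate 11. Of the calls of named genes, Cd9, Nlrp2, Pdia4, Eif4a3, Setd1a and Atp5e were lost under TMM and DESeq2 factors, and Zp3, Trim28 and Hsf2 under DESeq2 factors. The median of library CPM plus 1 ended 12 calls. Gapdh (0.99), Zfp677 (-0.97), Hspa5 (0.95), Mrpl37 (0.91), Kdm5c (-0.85) and Srsf4 (0.83) were among them. So were Setd1a, Pdia4, Zp3, Cd9, Tmsb4x (0.45) and Spp1 (0.00). The mean of library CPM ended 5, those of Cd9, Atp5e, Eif4a3, Srsf1 and Hnrnpa3. Totals without Rn45s ended 4, those of Cd9, Pdia4, Eif4a3 and Setd1a. ERCC scaling ended 21 lower calls: the 9 from Idh1 to Rsl24d1, Stard5 (-0.93), Casp8 (-0.75), Ryr2 (-0.75), Mrpl35 (-0.70), Kif2a (-0.70), Gstm5 (-0.69), Kdm5c (-0.58), Zfp397, Zfp677, Got1, Srsf1 and Hnrnpa3. Against the WT libraries with more Rn45s 15 calls were lost, 12 of higher genes and those of Ddx60, Zfp677 and Hnrnpa3, and against those with less Rn45s the calls of Ryr2, Eif3m and Got1. A minimum ERCC share of 0.1% was not run, since 0 oocyte libraries reach it. No paired analysis was possible because replicate numbers only name single oocytes and no test was made. Intervals cover counting error only.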
